A study of Mus musculus with 10 samples.

Results

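The mitosis and G2/M genes are a list of 37 genes that act between the end of DNA replication and the separation of daughter cells. Members were found by symbol, and all 37 were present among the 16895 genes of each library and were tested. They were measured by RNA-seq in 10 meningioma-like tumors of Nestin/tv-a mice that were null for Cdkn2a, so that every tumor compared here, of either construct, lacked this cell cycle inhibitor locus. Chicken DF1 fibroblasts that had been transfected with RCAS, an avian retroviral vector that enters only cells carrying its receptor tv-a, were injected into the subarachnoid space at postnatal day 0 to 3. The Nestin promoter drives that receptor, so infection was limited to cells with Nestin promoter activity at that age. The vector carried either YAP1-MAML2-v2, in which the Hippo pathway effector YAP1 is joined to the Notch coactivator MAML2 (n = 7), or NLS-2SA-YAP1, a constitutively active YAP1 (n = 3). By source region, 6 tumors were extra cranial: replicates 1, 3, 4 and 5 with YAP1-MAML2-v2, and replicates 2 and 3 with NLS-2SA-YAP1. Another 3 were extra axial, namely replicates 2 and 6 with YAP1-MAML2-v2 together with replicate 1 of NLS-2SA-YAP1. The intra ventricular tumor, replicate 7 of YAP1-MAML2-v2, was the only one of its region (n = 1). Untreated tissue was not analysed here, and the age at collection is not stated in the labels.

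Cells enter mitosis when CDK1 is activated by B-type cyclins, and leave it when the anaphase promoting complex marks those cyclins for destruction. The genes for these proteins, for the spindle and for cytokinesis are transcribed late in the cell cycle, by B-MYB (MYBL2) with the MuvB complex and by FOXM1, and are repressed in resting cells by the DREAM complex. DREAM and MuvB bind promoters at the cell cycle genes homology region (CHR), often near CCAAT boxes, the binding sequence of NF-Y. In meningioma, mitoses are counted for grading, and staining for Ki-67, the protein of MKI67, is widely used beside it.

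Promoter sequence shared by the members was read from RefSeq windows of the GRCm38.p6 build, from 250 bases before to 50 bases after each gene's start. Windows were found for 32 of the 37 members, and were not matched for AURKB, TPX2, INCENP, FOXM1 and KIF20A. CCAAT, read on either strand, was present in 24 of the 32 windows (75.0%), against 10248 of all 27025 promoter windows of that length (37.9%). It occurred at 2 or more places in 15 members (46.9%), against 12.2% of all windows. TTTGAA, the common form of the CHR, was present in 23 members (71.9%) against 18.1% of all windows, and the variant TTCGAA in 4 members (12.5%) against 1.57%. Either CHR form was present together with CCAAT in 22 members (68.8%), against 7.70% of all windows. In 22 members a CHR match lay within 50 bases of the start on either side, a count that was not taken over all windows. A single pair of matches overlapped, in CDCA8, and for 2 members with more than 1 listed start the first was used. These are letter matches, and no binding was measured. The windows of BIRC5, MYBL2, MAD2L1, NUF2 and NUSAP1 held none of the 3 motifs.

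The sequences below run from 120 bases before to 30 bases after the start, 5′ to 3′ on the strand of the gene, with every match of the 3 motifs in capitals: CCAAT, or ATTGG where the box is on the other strand, and TTTGAA or TTCGAA, or TTCAAA for the former on the other strand. CDK1 (chr10:69352883-69353032, minus strand), CCNB2 (chr9:70421525-70421674, minus strand), CDC20 (chr4:118437314-118437463, minus strand), UBE2C (chr2:164769809-164769958, plus strand), CENPA (chr5:30666766-30666915, plus strand) and KIF23 (chr9:61946770-61946919, minus strand) are shown because both motifs lay in this stretch. CCNB1 (chr13:100786457-100786606, minus strand) is shown as a member with CCAAT boxes only in the printed stretch, and MYBL2 (chr2:163054515-163054664, plus strand) as a member with none of the motifs.
CDK1: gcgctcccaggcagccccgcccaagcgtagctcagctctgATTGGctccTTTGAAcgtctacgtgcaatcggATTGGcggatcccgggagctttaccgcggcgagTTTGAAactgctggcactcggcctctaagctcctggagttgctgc
CCNB1: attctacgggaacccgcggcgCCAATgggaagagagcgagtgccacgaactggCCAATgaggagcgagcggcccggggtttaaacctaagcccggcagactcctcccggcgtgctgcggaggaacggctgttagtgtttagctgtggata
CCNB2: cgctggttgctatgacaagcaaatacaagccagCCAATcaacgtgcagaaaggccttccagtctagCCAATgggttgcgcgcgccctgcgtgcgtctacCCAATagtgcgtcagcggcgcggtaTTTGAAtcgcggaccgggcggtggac
CDC20: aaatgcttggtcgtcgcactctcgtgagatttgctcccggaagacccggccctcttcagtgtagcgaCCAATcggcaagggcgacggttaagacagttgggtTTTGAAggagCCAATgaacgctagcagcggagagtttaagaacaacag
UBE2C: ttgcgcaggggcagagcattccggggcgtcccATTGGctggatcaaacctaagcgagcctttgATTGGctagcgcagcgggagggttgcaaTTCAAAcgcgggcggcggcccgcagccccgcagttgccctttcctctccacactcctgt
CENPA: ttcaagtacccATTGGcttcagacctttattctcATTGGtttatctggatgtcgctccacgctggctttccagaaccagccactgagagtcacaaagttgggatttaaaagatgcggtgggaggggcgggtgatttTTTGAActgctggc
KIF23: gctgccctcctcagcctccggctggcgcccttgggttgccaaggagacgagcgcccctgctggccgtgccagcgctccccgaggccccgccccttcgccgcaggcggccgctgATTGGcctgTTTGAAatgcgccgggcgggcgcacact
MYBL2: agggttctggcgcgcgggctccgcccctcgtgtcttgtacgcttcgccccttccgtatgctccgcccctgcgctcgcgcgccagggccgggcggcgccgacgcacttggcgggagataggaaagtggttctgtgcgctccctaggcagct

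**Figure D1:**
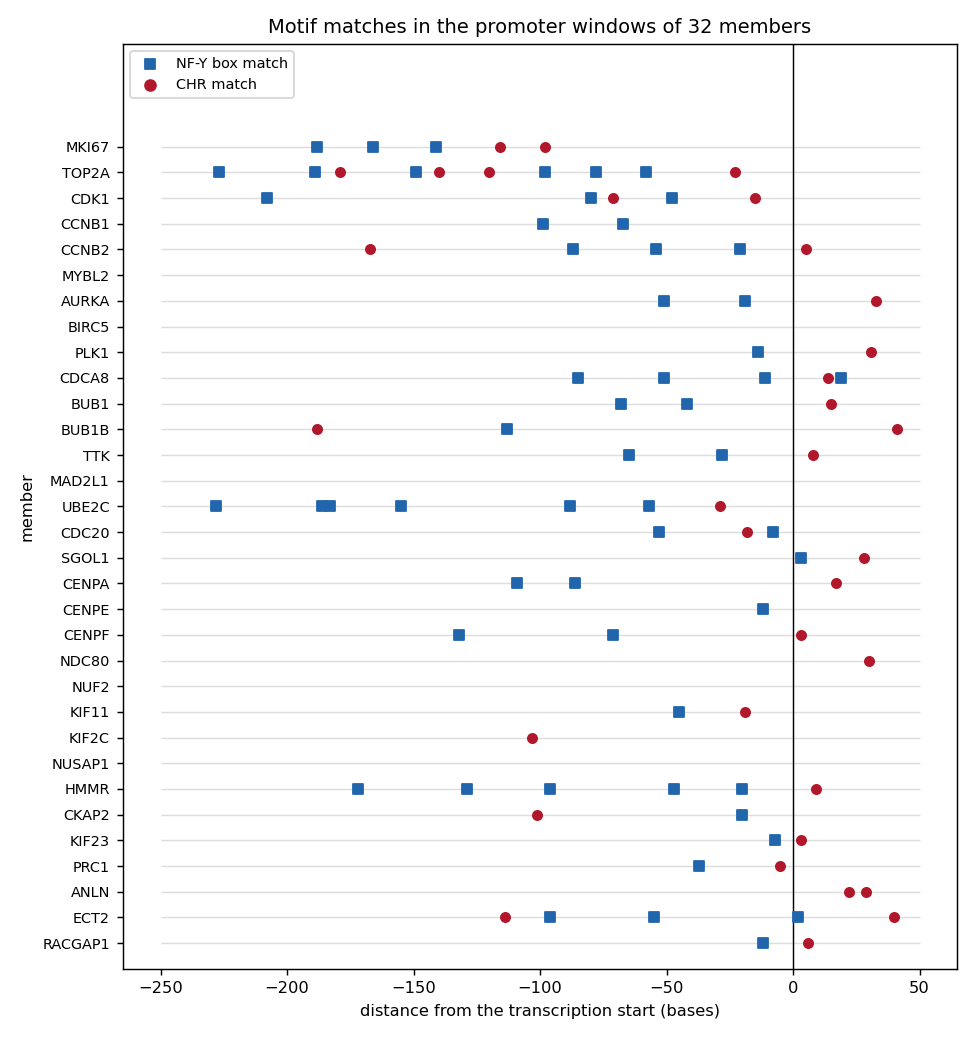
Positions of CCAAT and CHR matches in the RefSeq promoter windows of the 32 matched members, with distance from the gene's start in bases on the x axis and 1 member per row. CHR matches lay within 50 bases of the start in 22 members, and CCAAT matches were spread further upstream. Positions were not counted over all promoter windows.

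Library totals ran from 28001143 to 44544314. The deposited whole numbers are not plain read counts, since 4.54 to 6.82 times as many genes stood at 1 as at 2 in each library, so the depth behind a value is unknown and no counting interval is given. No member stood at 0 or 1 in any library. The lowest member value was 2, the highest 7904, and 21 values in 15 members were under 10, so the folds of the least abundant members rest on small numbers. The 10 meningeal fibroblast markers fixed for the check of tissue (among them DCN, COL1A1, COL1A2, ALDH1A2 and PTGDS) summed to between 8601 and 43050 CPM, the value scaled to a common library total. VIM alone held 1918 to 16580 CPM of that sum, and 13670 of 20200 CPM in YAP1-MAML2-v2 replicate 4. In that library ALDH1A2, PDGFRA and LUM were at 0.255, 0.113 and 0.369 CPM. DCN, OGN, COL1A1, COL1A2 and PTGDS were at 41.3 to 2414 CPM there. In 8 libraries each of the 10 was above 1 as deposited, a low bar that does not by itself show meningeal identity. CRABP2 was at 0 or 1 in YAP1-MAML2-v2 replicate 4, with 0.0284 CPM, and PTGDS stood at 0 in replicate 5 of the same construct. DF1, the cell type in the labels, is the chicken producer line and not the mouse tumor. The labels do not say that each library came from its own animal, and the deposited names of YAP1-MAML2-v2 replicates 6 and 7 share a number, so p-values measure the spread between these libraries, part of which may be technical.

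Across the 10 tumors the members moved together over a wide range. YAP1-MAML2-v2 replicate 2, an extra axial tumor, held the highest level of 36 of the 37 members (97.3%), and CKAP2 was the exception, highest in NLS-2SA-YAP1 replicate 1. The same library was the highest for 13.0% of all 13707 genes tested. YAP1-MAML2-v2 replicate 5, an extra cranial tumor, was lowest for 31 members (83.8%), against 11.5% of all genes. YAP1-MAML2-v2 replicate 7, the intra ventricular tumor, was lowest for the other 6 members, CENPF, PRC1, ANLN, CKAP2, NUF2 and SGOL1, and second lowest for 30.

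Summed over the 37 members, the level was 1403 CPM in YAP1-MAML2-v2 replicate 2 and 65.2 CPM in replicate 5, or 0.140% and 0.00652% of the library. The other YAP1-MAML2-v2 libraries held 298 CPM (replicate 1), 207 CPM (replicate 3), 450.3 CPM (replicate 4), 456 CPM (replicate 6) and 94.7 CPM (replicate 7). The NLS-2SA-YAP1 libraries lay close together, at 421, 511 and 389 CPM in replicates 1 to 3. All 3 therefore fell inside the range of the YAP1-MAML2-v2 tumors, which spanned the extremes at both ends. In a bulk tumor sample, fewer dividing cells and less of these transcripts per dividing cell cannot be told apart.

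**Figure D2:**
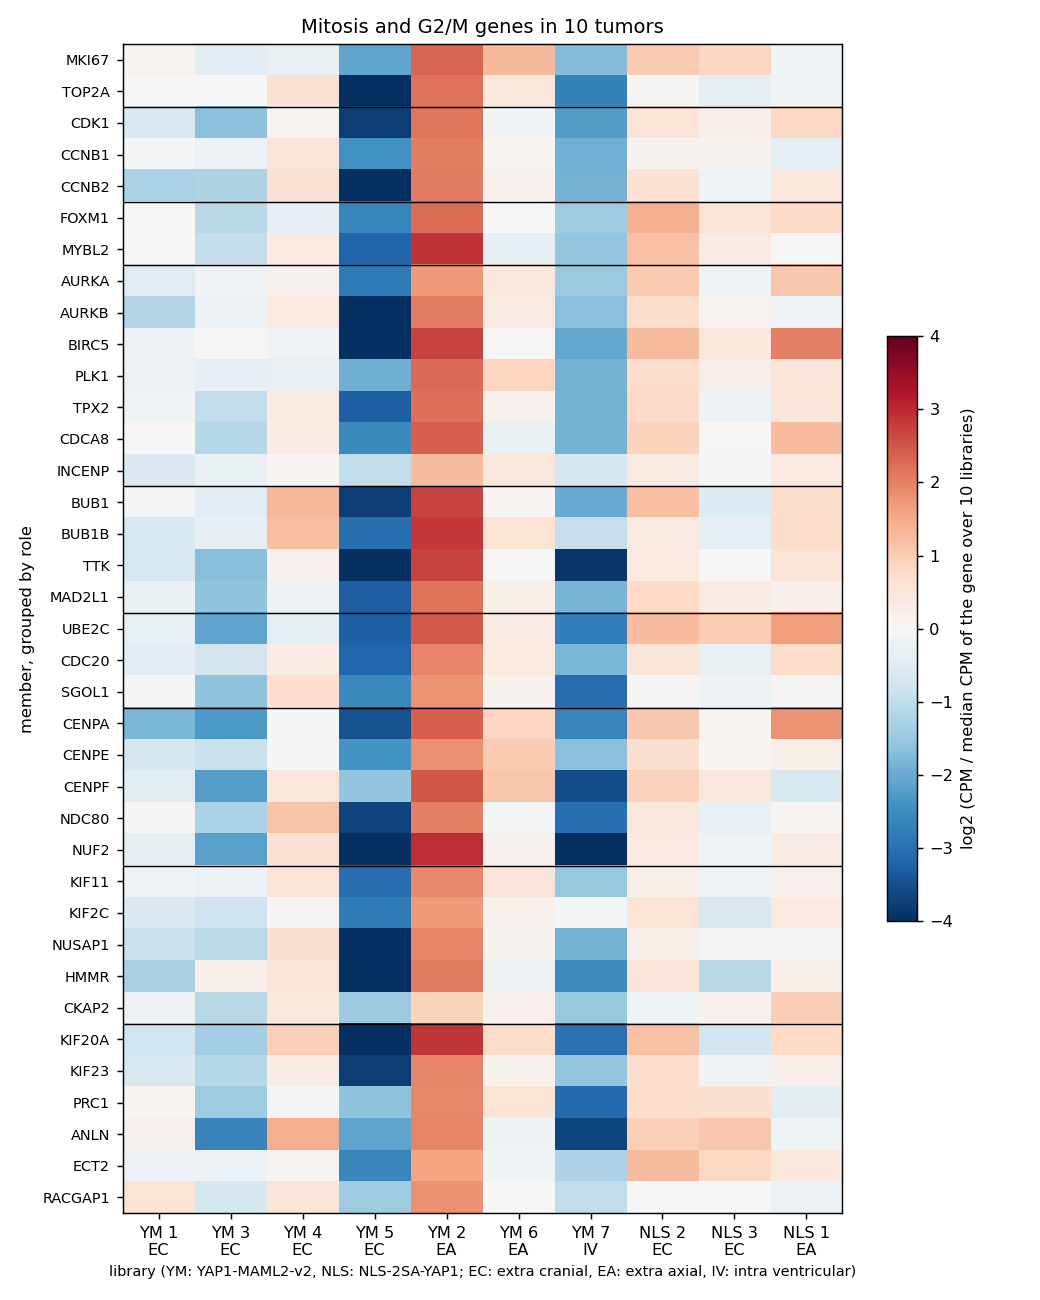
Levels of the 37 members (rows, grouped by role) in the 10 libraries (columns), as log2 of CPM relative to each gene's median over the libraries (red above, blue below). YAP1-MAML2-v2 replicate 2 is the highest library for 36 members, and replicates 5 and 7 hold the lowest value of every member.

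The size of this spread differed among members. The highest library exceeded the lowest by over 10-fold for 34 of the 37 members, with a median of 49.1-fold. KIF20A, a kinesin of the central spindle, spanned 397-fold, followed by NUF2 (171-fold), TTK (161-fold) and HMMR (158-fold), all of which were at well under 1 CPM in their lowest library. INCENP, the scaffold of the chromosomal passenger complex, varied least, by 4.64-fold, then CKAP2 (5.65-fold) and RACGAP1 (9.35-fold). The median over members of the SD of log2 CPM across libraries was 1.50, against 0.82 over all genes tested. Per kilobase of annotated exon, CKAP2 had the highest median level over the 10 libraries (10.4 CPM per kb), then TOP2A (5.06), NUSAP1 (3.17) and INCENP (3.08), while CENPA (0.127) and CDCA8 (0.305) were lowest. That length joins the exons of all annotated transcripts of a gene, 5860 bases for CENPA and 5177 for CDCA8. The order therefore depends on the annotation as well as on the level.

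Region was the first comparison: whether mitotic genes differed between extra axial and extra cranial tumors. The fit held construct as a second term and gave the difference as extra axial minus extra cranial on the log2 scale. All 37 members had a positive difference, with a median of 1.51 against -0.01 over all genes, but none passed the adjusted threshold of 0.05. By edgeR's quasi-likelihood test with Benjamini-Hochberg adjustment, 0 of 13707 genes were called (0.0%), and the adjusted p of each member was 1. At an unadjusted p under 0.05, 8 members were higher in extra axial tumors (MKI67, BIRC5, CENPA, CENPE, PLK1, UBE2C, CKAP2 and INCENP), against 139 of all genes (1.01%), and 413 genes reached that level in either direction. DESeq2 called 31 genes (0.226%) and 0 members, with 16 members at an unadjusted p under 0.05 against 206 of all genes in that direction (1.5%). That count was lower with limma: 4 members with limma-trend (0.832% of all genes) and 2 with limma-voom and sample weights (0.897%), where the median over members was 1.06. The differences are given below by role.

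MKI67 (chr7:135689784-135716361, mm10) encodes Ki-67, the coat of mitotic chromosomes, and TOP2A (chr11:98992943-99024189) the topoisomerase that untangles them. MKI67 had 23.4, 110.1, 16.1, 17.7, 5.08, 53.3 and 6.49 CPM in YAP1-MAML2-v2 replicates 1 to 7 and 20.2, 44.9 and 39.5 CPM in NLS-2SA-YAP1 replicates 1 to 3. TOP2A had 45.1, 207, 46.1, 69.7, 1.75, 61.4 and 6.99 CPM in YAP1-MAML2-v2 replicates 1 to 7 and 41.4, 47.2 and 35.8 CPM in NLS-2SA-YAP1 replicates 1 to 3. The extra axial tumors held the highest pair of MKI67 levels, but the third extra axial tumor, NLS-2SA-YAP1 replicate 1, lay inside the extra cranial range of 5.08 to 44.9 CPM. The fitted region difference was 1.60 (SE 0.71) for MKI67, with an unadjusted p of 0.0473 before and an adjusted p of 1 after the edgeR adjustment, and 1.23 (SE 0.85) for TOP2A. The ratio of MKI67 to TOP2A ran from 0.255 in YAP1-MAML2-v2 replicate 4 to 1.10 in NLS-2SA-YAP1 replicate 3 in 9 libraries, and was 2.91 in YAP1-MAML2-v2 replicate 5, the library of lowest levels. In that library TOP2A stood at 0.296 of the level set by its own median over the libraries and the shift of the library's median member.

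The kinase CDK1 and its activating cyclins CCNB1 and CCNB2 start mitosis. CDK1 had 5.62, 37.9, 2.71, 9.30, 0.627, 7.95 and 1.82 CPM in YAP1-MAML2-v2 replicates 1 to 7 and 15.4, 12.6 and 9.95 CPM in NLS-2SA-YAP1 replicates 1 to 3. CCNB1 had 8.75, 38.3, 7.92, 13.3, 1.75, 9.86 and 2.44 CPM in YAP1-MAML2-v2 replicates 1 to 7 and 7.28, 10.2 and 10.2 CPM in NLS-2SA-YAP1 replicates 1 to 3. For both, YAP1-MAML2-v2 replicate 2 stood apart at the top, and the other 9 libraries held up to 15.4 CPM of CDK1 and up to 13.3 CPM of CCNB1. Extra axial exceeded extra cranial tumors by a fitted 1.80 (SE 0.82) for CDK1, 1.03 (SE 0.73) for CCNB1 and 1.62 (SE 0.99) for CCNB2, and without YAP1-MAML2-v2 replicate 2 it was 0.64 for CDK1 and -0.04 for CCNB1.

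FOXM1 and MYBL2 are the transcription factors of the G2/M program and were themselves members. FOXM1 had 5.62, 26.6, 2.61, 4.31, 0.923, 5.73 and 2.13 CPM in YAP1-MAML2-v2 replicates 1 to 7 and 9.57, 15.2 and 8.04 CPM in NLS-2SA-YAP1 replicates 1 to 3. MYBL2 had 2.44, 17.9, 1.24, 3.18, 0.264, 1.88 and 0.829 CPM in YAP1-MAML2-v2 replicates 1 to 7 and 2.39, 5.40 and 3.04 CPM in NLS-2SA-YAP1 replicates 1 to 3. Like most members, both were highest in YAP1-MAML2-v2 replicate 2 and lowest in replicate 5, and in both NLS-2SA-YAP1 replicate 2 was the second highest. The fit gave a region difference of 1.60 (SE 0.81) for FOXM1 and 1.70 (SE 1.10) for MYBL2. Without YAP1-MAML2-v2 replicate 2, that of MYBL2 turned to -0.31.

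The Aurora and Polo kinases and the chromosomal passenger complex correct chromosome attachment and build the spindle. AURKA, the centrosomal Aurora kinase, had 2.83, 12.8, 3.59, 4.34, 0.561, 5.28 and 1.40 CPM in YAP1-MAML2-v2 replicates 1 to 7 and 8.40, 8.16 and 3.47 CPM in NLS-2SA-YAP1 replicates 1 to 3. PLK1, the Polo-like kinase, had 3.15, 17.6, 2.81, 2.95, 0.956, 6.63 and 0.995 CPM in YAP1-MAML2-v2 replicates 1 to 7 and 5.12, 6.18 and 4.30 CPM in NLS-2SA-YAP1 replicates 1 to 3. Among the YAP1-MAML2-v2 tumors, both extra axial libraries exceeded all 4 extra cranial libraries for each kinase. AURKB, the kinase of the passenger complex, had 0.774, 7.18, 1.49, 2.30, 0.0989, 2.22 and 0.545 CPM in YAP1-MAML2-v2 replicates 1 to 7 and 1.60, 2.90 and 1.89 CPM in NLS-2SA-YAP1 replicates 1 to 3. BIRC5, or survivin, a subunit of that complex, had 3.12, 23.6, 3.57, 3.21, 0.165, 3.68 and 0.876 CPM in YAP1-MAML2-v2 replicates 1 to 7 and 14.8, 8.64 and 4.83 CPM in NLS-2SA-YAP1 replicates 1 to 3. BIRC5 in NLS-2SA-YAP1 replicate 1 stood 3.12-fold above the level set by its own median over the libraries and the shift of that library's median member, while AURKB was at 1.60 CPM there. INCENP (chr19:9872296-9899551), the scaffold of the complex, had 8.99, 31.4, 11.1, 14.0, 6.76, 18.1 and 8.36 CPM in YAP1-MAML2-v2 replicates 1 to 7 and 17.5, 17.0 and 12.6 CPM in NLS-2SA-YAP1 replicates 1 to 3.

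INCENP was the single member, 1 of 37, for which every extra axial tumor exceeded every extra cranial one (17.5 CPM at the lowest against 17.0 CPM at the highest), a pattern of 53 genes among all tested (0.387%). The region difference was 0.96 (SE 0.42) for INCENP, 1.33 (SE 0.74) for AURKA, 1.34 (SE 1.07) for AURKB, 2.05 (SE 0.89) for BIRC5 and 1.68 (SE 0.74) for PLK1. Unadjusted p-values were 0.0454 for INCENP, 0.0445 for BIRC5 and 0.0464 for PLK1. The other 2 members with this role, TPX2, which activates AURKA on the spindle, and CDCA8, or borealin, of the passenger complex, were also higher in the extra axial group, and the 7 differences ran from 0.96 to 2.05.

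The spindle assembly checkpoint holds anaphase back until every chromosome is attached. BUB1, a checkpoint kinase at the kinetochore, had 3.42, 23.4, 2.71, 8.76, 0.264, 3.79 and 0.900 CPM in YAP1-MAML2-v2 replicates 1 to 7 and 5.84, 8.23 and 2.46 CPM in NLS-2SA-YAP1 replicates 1 to 3. TTK, or MPS1, the kinase that starts checkpoint signaling, had 1.58, 15.9, 0.759, 2.75, 0.0989, 2.47 and 0.166 CPM in YAP1-MAML2-v2 replicates 1 to 7 and 3.49, 3.21 and 2.44 CPM in NLS-2SA-YAP1 replicates 1 to 3. Both were highest in YAP1-MAML2-v2 replicate 2 by a wide step: the next libraries held 8.76 CPM of BUB1 and 3.49 CPM of TTK. The region difference was 1.35 (SE 1.00) for BUB1 and 2.17 (SE 1.08) for TTK, and with BUB1B and MAD2L1, the other checkpoint members, the 4 differences ran from 1.35 to 2.17.

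CDC20 and UBE2C act when the checkpoint is released. CDC20, the activator of the anaphase promoting complex, had 1.52, 8.05, 1.24, 2.58, 0.231, 2.73 and 0.592 CPM in YAP1-MAML2-v2 replicates 1 to 7 and 3.45, 2.94 and 1.68 CPM in NLS-2SA-YAP1 replicates 1 to 3. UBE2C (chr2:164769898-164778822), the ubiquitin-conjugating enzyme of that complex, had 2.29, 15.4, 0.658, 2.21, 0.297, 3.54 and 0.426 CPM in YAP1-MAML2-v2 replicates 1 to 7 and 9.14, 6.73 and 5.71 CPM in NLS-2SA-YAP1 replicates 1 to 3. All 3 NLS-2SA-YAP1 tumors held more UBE2C than 6 of the 7 YAP1-MAML2-v2 tumors, and YAP1-MAML2-v2 replicate 2 was again the highest. Between regions CDC20 differed by 1.54 (SE 0.88) and UBE2C by 2.19 (SE 0.89), the latter at an unadjusted p of 0.0332. SGOL1, or shugoshin, which protects the cohesion of centromeres, had 0.213 CPM in the intra ventricular tumor and 6.19 CPM in YAP1-MAML2-v2 replicate 2.

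Centromere and kinetochore proteins link chromosomes to spindle microtubules. CENPA (chr5:30666777-30674830), the histone H3 variant that marks centromeres, had 0.208, 3.90, 0.152, 0.709, 0.0659, 1.35 and 0.118 CPM in YAP1-MAML2-v2 replicates 1 to 7 and 2.58, 1.57 and 0.779 CPM in NLS-2SA-YAP1 replicates 1 to 3. CENPF, a large kinetochore and nuclear matrix protein, had 15.2, 114, 4.38, 27.5, 6.76, 42.2 and 1.73 CPM in YAP1-MAML2-v2 replicates 1 to 7 and 13.0, 38.2 and 27.0 CPM in NLS-2SA-YAP1 replicates 1 to 3. NDC80, the microtubule-binding subunit of the kinetochore, had 3.54, 14.0, 1.42, 7.57, 0.264, 3.34 and 0.426 CPM in YAP1-MAML2-v2 replicates 1 to 7 and 3.61, 4.68 and 2.74 CPM in NLS-2SA-YAP1 replicates 1 to 3. CENPA had the largest region difference of the 37 members, 2.62 (SE 1.01), at an unadjusted p of 0.0276, and remained the largest at 1.77 without YAP1-MAML2-v2 replicate 2. Its level in the extra axial tumors was 1.35 to 3.91 CPM, against 0.066 to 1.57 CPM in the extra cranial ones, so the groups overlapped in 1 extra cranial library, NLS-2SA-YAP1 replicate 2. The differences were 1.70 (SE 0.85) for CENPF and 1.01 (SE 0.98) for NDC80. CENPE, the kinetochore kinesin, differed by 1.65 (SE 0.65) at an unadjusted p of 0.0286, and NUF2, the partner of NDC80, by 2.11 (SE 1.09). In the intra ventricular tumor NUF2 stood at 0.230 and CENPF at 0.313 of the level set by their own medians over the libraries and that library's median member.

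Spindle motors and spindle proteins shape the mitotic apparatus. KIF11, the kinesin that pushes the spindle poles apart, had 8.15, 34.8, 7.82, 13.2, 1.12, 12.9 and 3.20 CPM in YAP1-MAML2-v2 replicates 1 to 7 and 10.4, 10.6 and 8.09 CPM in NLS-2SA-YAP1 replicates 1 to 3. KIF2C, a kinesin that takes microtubules apart at centromeres, had 1.76, 8.47, 1.47, 2.67, 0.363, 2.95 and 2.53 CPM in YAP1-MAML2-v2 replicates 1 to 7 and 3.38, 3.79 and 1.66 CPM in NLS-2SA-YAP1 replicates 1 to 3. HMMR, a spindle and hyaluronan-binding protein, had 2.02, 20.9, 5.77, 7.06, 0.132, 4.27 and 0.853 CPM in YAP1-MAML2-v2 replicates 1 to 7 and 5.82, 7.04 and 2.29 CPM in NLS-2SA-YAP1 replicates 1 to 3. KIF2C in the intra ventricular tumor was 3.47-fold above the level set by its own median over the libraries and the library's median member, and it was the member closest between YAP1-MAML2-v2 replicates 6 and 7. The region difference was 1.22 (SE 0.70) for KIF11, 1.42 (SE 0.84) for KIF2C and 1.33 (SE 1.02) for HMMR. NUSAP1, a microtubule-bundling protein, and CKAP2, a microtubule-associated protein, complete the group. CKAP2 differed by 0.98 (SE 0.42) at an unadjusted p of 0.0421.

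The central spindle and the contractile ring divide the cell. KIF20A had 2.05, 26.2, 1.37, 6.86, 0.0659, 5.96 and 0.450 CPM in YAP1-MAML2-v2 replicates 1 to 7 and 6.15, 8.03 and 2.14 CPM in NLS-2SA-YAP1 replicates 1 to 3. PRC1, which bundles antiparallel microtubules of the central spindle, had 19.2, 69.2, 6.71, 17.1, 5.90, 26.5 and 2.08 CPM in YAP1-MAML2-v2 replicates 1 to 7 and 13.2, 29.2 and 28.4 CPM in NLS-2SA-YAP1 replicates 1 to 3. YAP1-MAML2-v2 replicate 2 was the highest library for both, and the lowest was replicate 5 for KIF20A and replicate 7 for PRC1. ANLN, or anillin, the scaffold of the contractile ring, had 11.9, 40.6, 1.65, 29.1, 2.44, 9.10 and 0.829 CPM in YAP1-MAML2-v2 replicates 1 to 7 and 9.41, 20.3 and 23.0 CPM in NLS-2SA-YAP1 replicates 1 to 3. ECT2, the exchange factor that activates RhoA at the division plane, had 10.8, 38.4, 10.8, 13.9, 2.11, 11.8 and 5.42 CPM in YAP1-MAML2-v2 replicates 1 to 7 and 17.1, 30.9 and 22.6 CPM in NLS-2SA-YAP1 replicates 1 to 3. In ANLN, YAP1-MAML2-v2 replicate 4 was second highest while replicate 6, an extra axial tumor, lay below 4 of the 6 extra cranial tumors. On the log2 scale the regions differed by 2.01 (SE 1.15) for KIF20A, 1.23 (SE 0.69) for PRC1, 0.85 (SE 0.67) for ECT2 and 0.52 (SE 0.95) for ANLN, the smallest of all members. KIF23 and RACGAP1, which form the centralspindlin complex, differed by 1.47 (SE 0.80) and 0.80 (SE 0.58).

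**Figure D3:**
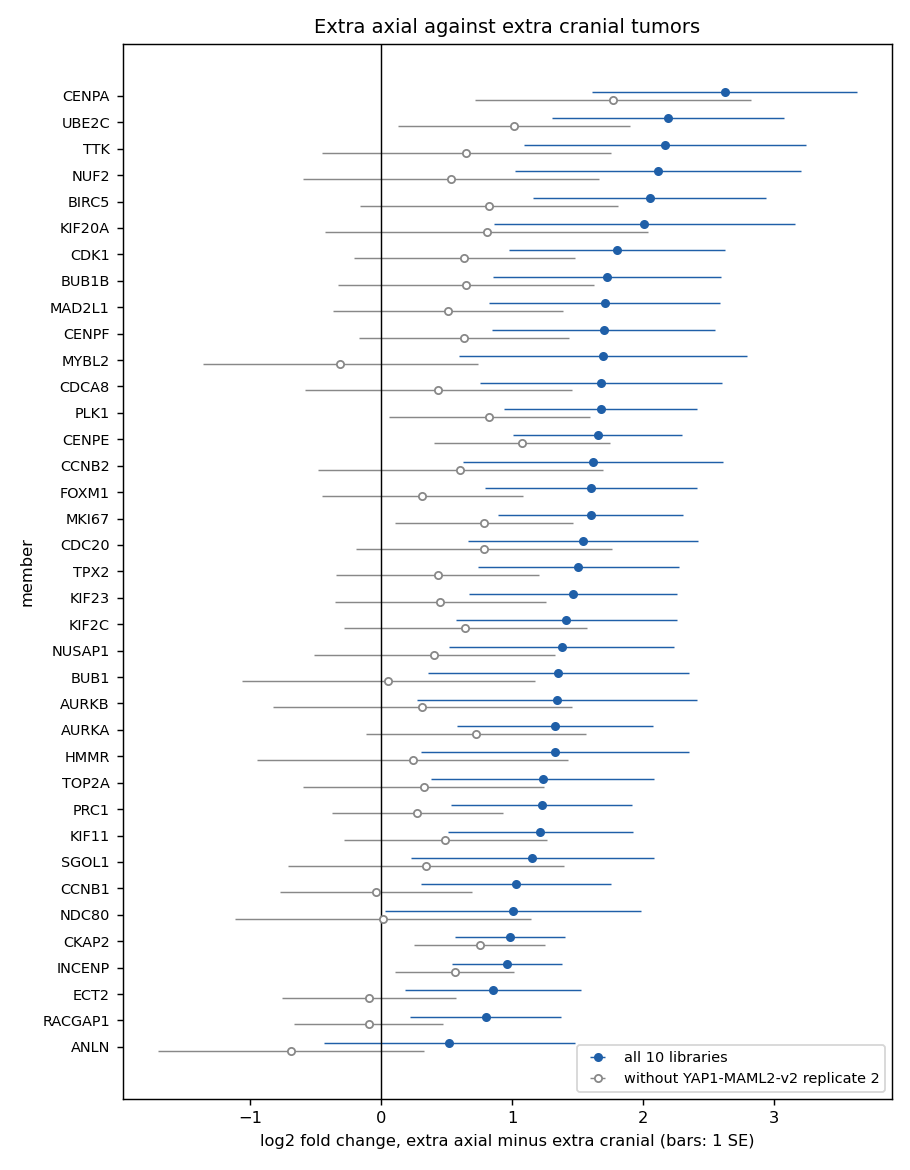
Fitted log2 difference between extra axial and extra cranial tumors for each of the 37 members, from all 10 libraries and from the 9 libraries without YAP1-MAML2-v2 replicate 2. Error bars are 1 standard error, derived from the F statistic of the test. All 37 differences are above 0 with that library and 32 without it, and their median moves from 1.51 to 0.51.

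How far the region difference rested on single tumors was measured by leaving each out. Without YAP1-MAML2-v2 replicate 2 the median over members was 0.51, 32 members were higher and 5 lower in extra axial tumors (CCNB1, ANLN, ECT2, RACGAP1 and MYBL2), and 0 reached an unadjusted p under 0.05. Without replicate 5 of the same construct the median was 1.18, and without NLS-2SA-YAP1 replicate 1 it was 2.04 with 14 members at an unadjusted p under 0.05, against 249 of 14046 genes in that direction (1.77%). With both the highest and the lowest YAP1-MAML2-v2 tumor left out, the median was 0.29, and 30 members were higher and 7 lower. The sign of all 37 was positive with each of the 9 other libraries left out in turn, and under the 2 other scalings, of which library totals alone moved the median of all genes from -0.01 to 0.14. The intra ventricular library has its own term, so leaving it out could barely move the difference (median 1.50). Without NLS-2SA-YAP1 replicate 1 the difference rested on YAP1-MAML2-v2 tumors alone, much as in the fit to those tumors below.

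Within the YAP1-MAML2-v2 tumors, both extra axial libraries exceeded all 4 extra cranial libraries for 14 of 37 members (37.8%), among them MKI67, AURKA, BIRC5, CENPA, CENPF, PLK1, UBE2C, CDC20 and FOXM1. That pattern was seen in 687 of all genes (5.01%). A fit to the YAP1-MAML2-v2 tumors gave a median difference of 2.04, all 37 positive, with 10 members at an unadjusted p under 0.05, against 221 of 14649 genes in that direction (1.51%), and 0 called by edgeR. YAP1-MAML2-v2 replicate 2, the highest library for 36 members, was 1 of the 2 extra axial libraries in this fit. The fit was not repeated without that library. Within NLS-2SA-YAP1 there was a single extra axial tumor against 2 extra cranial ones. It lay above both for 12 of 37 members, between them for 15 and below both for 10, against 37.5%, 24.3% and 38.2% of all genes. CDK1, AURKA, BIRC5, CENPA and UBE2C were among those above, and MKI67, CENPF, PRC1 and ANLN among those below, and with 1 tumor there is no test of this.

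The test of whether the region difference differed between constructs was run on the 9 libraries outside the ventricle. All 37 members had a lower extra axial minus extra cranial difference in NLS-2SA-YAP1, with a median of -1.94 against -0.04 over all genes. No member passed the edgeR adjusted threshold, and 1 of 13487 genes did (0.00741%). MKI67 (-3.44, SE 1.10), CENPF (-3.85, SE 1.41) and PRC1 (-3.08, SE 1.16) had unadjusted p-values of 0.0125, 0.0242 and 0.0272, and edgeR adjusted p-values of 0.658, 0.662 and 0.662. They were the 3 of 37 members at an unadjusted p under 0.05, a level that 479 of all genes reached in that direction (3.55%) and 963 in either. DESeq2 called 204 genes but no member, with an adjusted p of 0.0796 for MKI67. On the NLS-2SA-YAP1 side the term rests on 1 extra axial library, replicate 1, which is assumed to vary like the other groups. On the YAP1-MAML2-v2 side it rests on 2 extra axial libraries, among them replicate 2, the highest library for 36 members. The interaction was not refitted without single libraries, so how far its sign rests on that library was not tested.

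**Figure D4:**
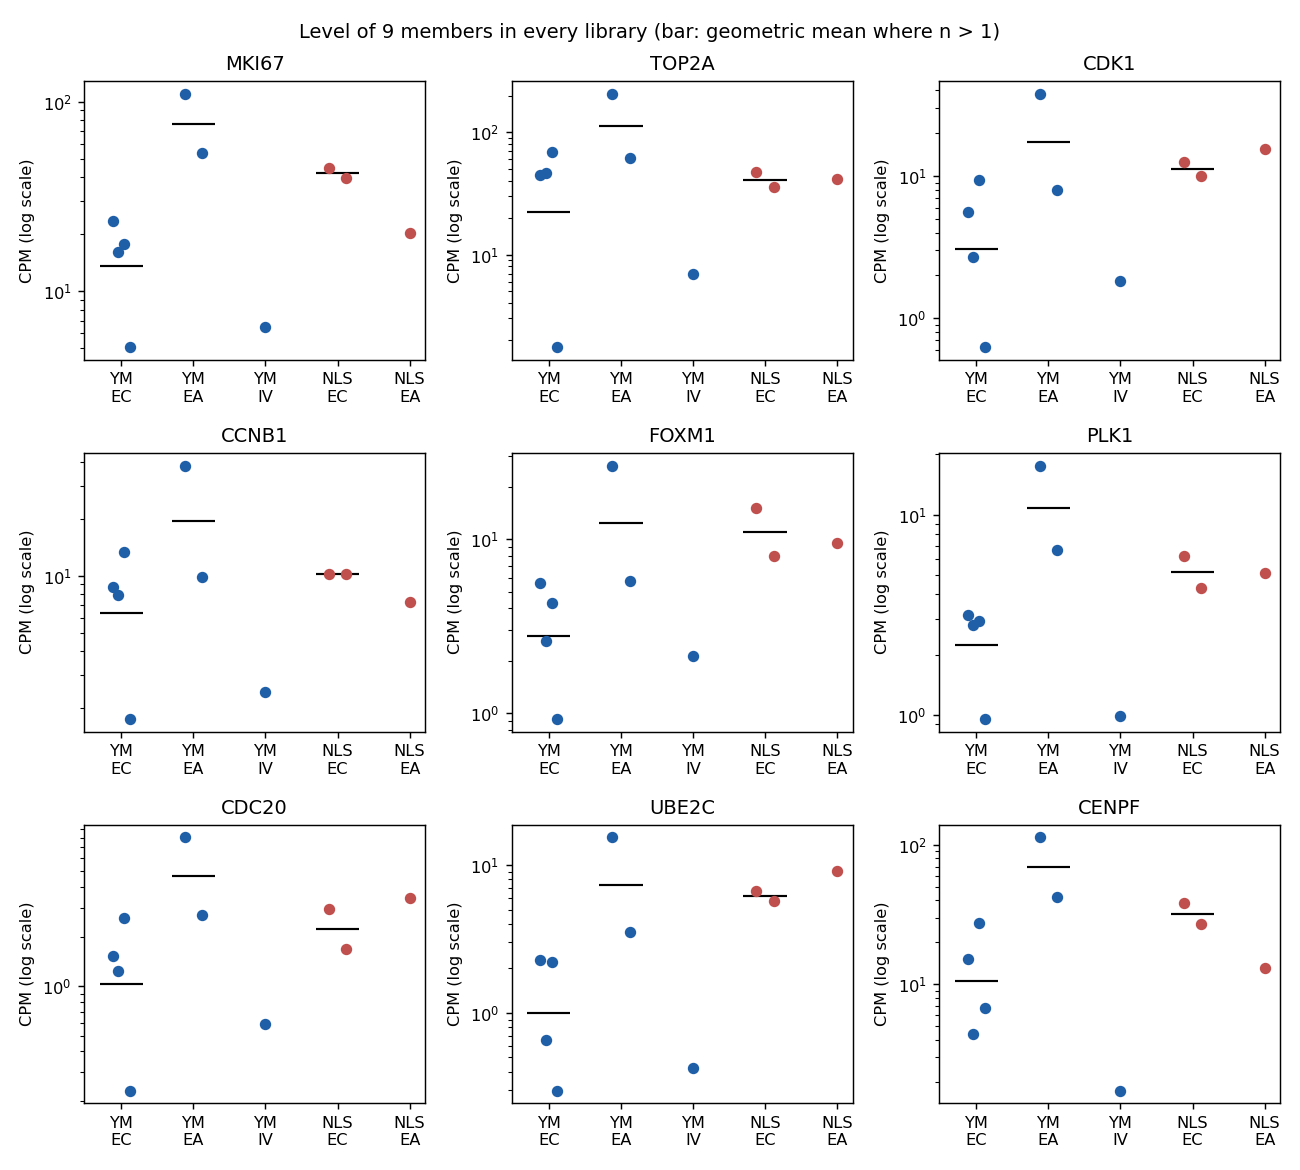
Levels of 9 members in each library, in CPM on a log axis, by construct (YM, YAP1-MAML2-v2; NLS, NLS-2SA-YAP1) and region (EC, extra cranial; EA, extra axial; IV, intra ventricular), with 1 point per library and a bar at the geometric mean. YAP1-MAML2-v2 replicate 2 is the top point in each panel, and the 2 YAP1-MAML2-v2 extra axial tumors lie above all 4 extra cranial ones of that construct for MKI67, PLK1, CDC20, UBE2C, CENPF and FOXM1.

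The second comparison was between constructs, NLS-2SA-YAP1 minus YAP1-MAML2-v2 with region as a term. Of the members, 29 were higher and 8 lower, with a median of 0.42 against -0.03 over all genes. No member passed the threshold in the edgeR quasi-likelihood test, in which 2 of 13707 genes did (0.0146%), and no member had an unadjusted p under 0.05, against 1789 genes. DESeq2 called 685 genes (5.0%) and 0 members, and limma-voom with sample weights 95 genes and 0 members, with 2 of 37 members at an unadjusted p under 0.05 against 2702 of all genes (19.7%). The largest differences were 1.58 (SE 0.89) for UBE2C, 1.46 (SE 1.02) for CENPA and 1.13 (SE 0.81) for FOXM1, with edgeR adjusted p-values of 0.48, 0.581 and 0.593. For MKI67, with a median of 39.5 CPM over the NLS-2SA-YAP1 tumors (20.2 to 44.9) and 17.7 CPM over those of YAP1-MAML2-v2 (5.08 to 110.1), the fit gave a difference of 0.65 (SE 0.71) and an edgeR adjusted p of 0.756. TOP2A had the lowest difference, -0.46 (SE 0.89), with an adjusted p of 0.888.

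Every NLS-2SA-YAP1 tumor exceeded every YAP1-MAML2-v2 tumor in 0 of the 37 members, a pattern found in 508 genes (3.71%), and YAP1-MAML2-v2 replicate 2 was above all 3 in 36 members and above 2 of the 3 in CKAP2. The split of signs depended on the libraries and settings: 16 members were higher and 21 lower without NLS-2SA-YAP1 replicate 2 (median -0.05), 37 were higher without NLS-2SA-YAP1 replicate 1 (median 0.99), and 23 without YAP1-MAML2-v2 replicate 5 (median 0.09). Without region in the fit 22 were higher and 15 lower. Among extra cranial tumors alone, all 37 were higher in NLS-2SA-YAP1, and both of its tumors exceeded all 4 of YAP1-MAML2-v2 for 11 members: MKI67, CDK1, BIRC5, CENPA, CENPE, PLK1, UBE2C, PRC1, ECT2, MAD2L1 and FOXM1. That pattern was seen in 1621 of all genes (11.8%).

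The intra ventricular tumor has no replicate. All 37 members were lower there than in YAP1-MAML2-v2 replicate 6, an extra axial tumor of the same construct, with a median ratio of replicate 6 to replicate 7 of 4.22. The ratio was lowest for KIF2C (1.16) and highest for NUF2 (24.9). The summed level of 94.7 CPM lay above that of 1 extra cranial tumor, YAP1-MAML2-v2 replicate 5, and below the other 8 libraries.

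Genes of the wider mitotic machinery that are not members had region differences of differing size. Of 8 further kinesins, all 8 were higher in extra axial tumors in the fit, with a median difference of 1.48, as were 22 of 22 centrosome and midbody genes (1.59), 15 of 15 regulators of mitotic entry and exit (1.14) and 25 of 25 kinetochore and checkpoint genes (0.71). The figures were 11 of 13 for condensin and cohesin (0.51), 10 of 13 for the anaphase promoting complex (0.37, and 12 of 13 with library totals alone) and 8 of 11 for the DREAM and MuvB complex (0.36). Without YAP1-MAML2-v2 replicate 2 the counts were 7 of 8, 15 of 22, 13 of 15, 14 of 25, 4 of 13, 8 of 13 and 6 of 11, in the same order, and the median of condensin and cohesin turned to -0.12. None of these genes was called by edgeR. The genes of smallest unadjusted p in their lists included ARHGAP11A, with a difference of 1.67 (SE 0.60), SASS6, a centriole assembly protein, with 1.92 (SE 0.71), and UBE2S, the partner of UBE2C on the anaphase promoting complex, with 1.26 (SE 0.48). Each had an edgeR adjusted p of 1.

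DNA replication and S phase genes, which act earlier in the cycle, were higher in extra axial tumors for 39 of 39, with a median of 0.67, and 1 (GINS4) had an unadjusted p under 0.05. Without YAP1-MAML2-v2 replicate 2 that pattern was lost: 10 of the 39 were higher and 29 lower, with a median of -0.25, while the median of the members was 0.51. Their median log2 CPM ran from 2.28 in YAP1-MAML2-v2 replicate 5 to 4.94 in replicate 2, a range of 2.66, while that of the members ran from -0.70 to 4.71 in the same libraries, a range of 5.41. The range was 4.64 for the further kinesins, 4.57 for centrosome and midbody genes, 4.12 for entry and exit regulators, 2.50 for kinetochore and checkpoint genes, 2.15 for condensin and cohesin, 1.49 for the anaphase promoting complex and 1.34 for DREAM and MuvB. Over all genes tested it was 0.09, but the scaling of the libraries holds that median nearly level. It is therefore no measure of how far a short list of genes moves. Between constructs the list medians ran from -0.19 for the further kinesins to 0.33 for the entry and exit regulators, and no gene of these lists was called by edgeR.

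**Figure D5:**
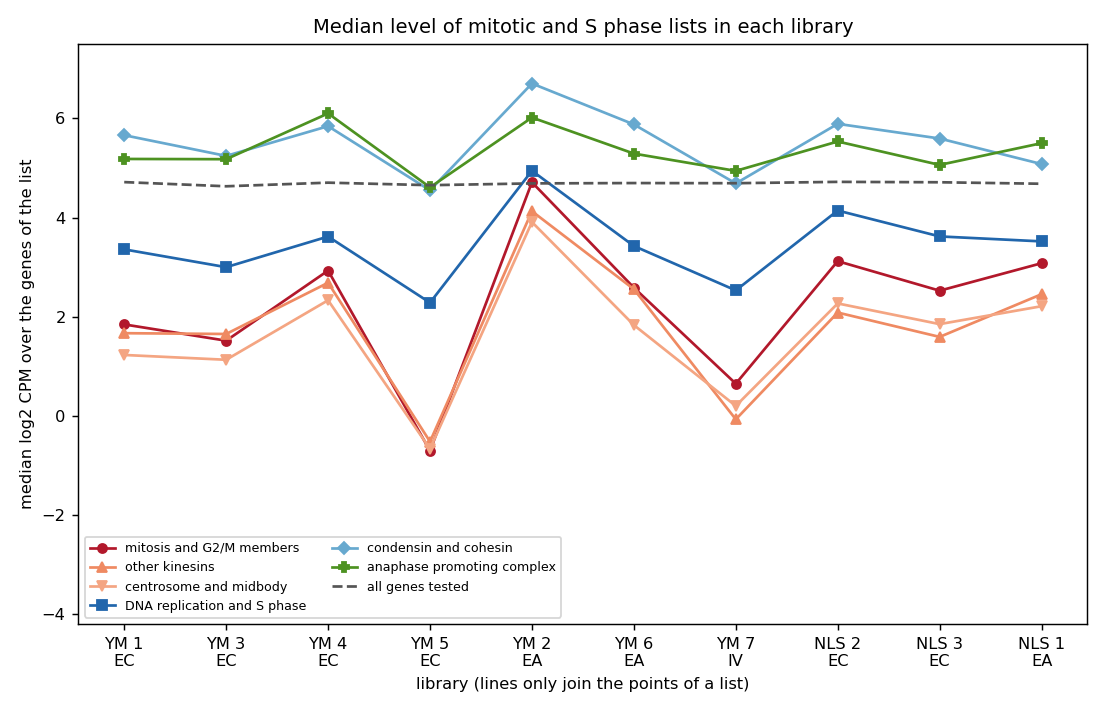
Median log2 CPM of the 37 members, of 5 other cell cycle lists and of all genes tested in each of the 10 libraries. The members run from -0.70 in YAP1-MAML2-v2 replicate 5 to 4.71 in replicate 2. The median of all genes stays within a range of 0.09, because the scaling of the libraries holds it nearly level.

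Markers of other cell types also differed between these libraries. The macrophage and microglia list, with 9 of its 10 markers in the files, summed to 478 CPM in YAP1-MAML2-v2 replicate 2, the lowest of all libraries, to 1405 CPM in replicate 5 and to 2169 CPM in replicate 7, the libraries of lowest member levels. It ranged from 609.7 to 1405 CPM in extra cranial and from 478 to 801 CPM in extra axial tumors, and 1 of its 8 tested markers was higher in extra axial tumors. Not every marker followed the sum. In YAP1-MAML2-v2 replicates 2, 5 and 7, C1QA was at 64.5, 312 and 499 CPM and C1QB at 50.3, 257 and 409 CPM. MRC1 was at 137, 414 and 4.62 CPM there, the last its lowest of all libraries. CX3CR1 was at 26.1, 14.2 and 180.5 CPM, lower in replicate 5 than in replicate 2. Of the other lists, 7 of 9 lymphocyte, 2 of 8 endothelial, 1 of 7 astrocyte and oligodendrocyte, 0 of 6 skeletal muscle and 0 of 5 neuronal markers were higher there, as were 5 of the 10 meningeal ones. The lymphocyte list summed to 29.2 CPM in YAP1-MAML2-v2 replicate 2, where CD79A was listed at 0, and ranged from 65.0 to 309 CPM in extra cranial and from 29.2 to 446 CPM in extra axial tumors. Endothelial markers summed to between 164 and 646 CPM in extra cranial and between 193 and 473 CPM in extra axial tumors, and astrocyte and oligodendrocyte markers reached 2084 CPM in the intra ventricular tumor and 49.9 to 436 CPM elsewhere. Skeletal muscle markers were at most 251 CPM, in NLS-2SA-YAP1 replicate 3, and neuronal markers lay between 484 and 1083 CPM. TUBB3 alone held 360 to 1066 CPM of the neuronal sum and was lowest in the intra ventricular tumor. Every other neuronal marker was highest in that tumor. SNAP25 (39.8 CPM), SYT1 (18.6), STMN2 (14.7) and RBFOX3 (12.3) were at most 3.49 CPM in the other libraries. No marker of these lists was called by edgeR. Their part in the levels of the mitotic genes was not tested.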

How the data were processed

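RNA of 10 frozen tumors was sequenced as stranded mRNA libraries, per the labels' protocols. Reads were counted with HTSeq against mm10, per the submitters' processing notes, without version numbers. Neither the aligner nor the annotation, the strand option or the step that turned mouse genes into human-style symbols is stated in the sources used here. What the authors deposited are whole numbers that were treated as estimated counts, because of an excess of genes at 1 and because 1662 genes were at most 1 in a tumor yet above 100 elsewhere. They were used without further rounding. Totals of 28001143 to 44544314 are sums of these values and not sequencing depth.

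Genes were kept by filterByExpr at a minimum count of 10 (13707 genes) with TMM scaling. In R 4.3.3, edgeR 4.0.16 fitted the 10 libraries by robust quasi-likelihood, with terms for construct and for region, Benjamini-Hochberg adjustment over all genes and a threshold of 0.05. The intra ventricular library has its own term. Each SE given with a difference was derived from the test, as the absolute log2 difference divided by the square root of its F statistic. The interaction was fitted to the 9 other libraries (13487 genes). CPM used TMM-scaled totals, and log2 CPM a prior count of 2. Steps were tested on simulated counts. Alternatives were other scalings, DESeq2 1.42.0, limma 3.58.1 (trend, and voom with sample weights), other filters, fewer terms or libraries, and the replicate number as a block. Replicate numbers 1 to 3 occur in both constructs. Deviations of same-numbered libraries from their construct means had correlations of 0.167, 0.337 and -0.072, against -0.241 to 0.275 for differently numbered ones. The value of 0.337 was the highest of all, and the pairs numbered 1 and 2 joined tumors of different regions. These values cannot settle whether the numbers pair tumors, and the main fit did not take them to.

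The members and lists were chosen with earlier results of these data known. All members are accounted for; 24 lead members set with the design are given in every library, other members where they are extreme, and up to 3 genes of a pathway list by smallest p. Gene positions are from GENCODE M21, and promoters from RefSeq.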

Additional observations from a re-analysis of the deposited data

Results flagged for a closer look

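For the 24 lead members and the summed level of all 37, the libraries of each group of 4 to 10 were searched for a value far from the rest, in 50 sets. A set was picked out where the gap of the highest or lowest library to its neighbour, as a fraction of the whole range, exceeded 0.568 for the 7 YAP1-MAML2-v2 libraries or 0.625 for the 6 extra cranial ones. It picked out 22 sets, all of them YAP1-MAML2-v2 replicate 2 as the high value among the YAP1-MAML2-v2 libraries. Since the members move together, these are not 22 separate observations. Chance picks out about 5% of sets of normally distributed values, and CPM values are skewed to the right. The result depends on the scale: on log2 CPM, a scale added after seeing the data, 0 of the 22 sets exceeded the limit, with fractions of 0.214 to 0.457. On that scale 8 other sets did, all with YAP1-MAML2-v2 replicate 5 as the low value among the extra cranial libraries, for TOP2A, CCNB1, BIRC5, BUB1, CDC20, KIF11, HMMR and KIF20A.

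On the CPM scale the fraction was 0.708 for the summed level. For the regulators it was 0.767 for CDK1, 0.684 for CCNB1, 0.813 for FOXM1 and 0.834 for MYBL2. The kinases and the passenger complex gave 0.615 for AURKA, 0.690 for AURKB, 0.659 for PLK1 and 0.850 for BIRC5. Checkpoint and anaphase genes gave 0.632 for BUB1, 0.832 for TTK, 0.681 for CDC20 and 0.786 for UBE2C. Chromosome and kinetochore genes gave 0.669 for TOP2A, 0.666 for CENPA and 0.638 for CENPF. Spindle and cytokinesis genes gave 0.641 for KIF11, 0.681 for KIF2C, 0.666 for HMMR, 0.740 for KIF20A, 0.637 for PRC1 and 0.676 for ECT2. MKI67, NDC80 and ANLN were below the limit.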

How the results depend on the processing

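No member was called for construct, region or interaction under any alternative run. Between constructs, edgeR called 2 genes, against 685 by DESeq2, 4 by limma-trend, 95 by limma-voom, 4 with no filter, 1 without genes that were at most 1 in a tumor yet above 100 elsewhere, 4 in extra cranial tumors only and 36 with a replicate block. Leaving out single libraries gave 0 to 2. The MKI67 difference turned from 0.65 to -0.10 with the replicate block. That of TOP2A turned from -0.46 to 0.093 (limma-trend), 0.32 (limma-voom) and 0.023 (extra cranial tumors only), and ran from -0.80 to 0.025 without single libraries. Between regions, 0 genes were called, against 31 by DESeq2, 6 with the replicate block and 0 to 1 without single libraries. For the interaction, 1 gene was called, against 204 by DESeq2 and 4 by limma-trend.

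Without single libraries, region differences ran from -0.038 to 1.60 for CCNB1, -0.31 to 2.47 for MYBL2, -0.69 to 1.33 for ANLN and -0.093 to 1.41 for ECT2, the lowest value each time without YAP1-MAML2-v2 replicate 2. Without both replicates 2 and 5 of that construct, a setting chosen after seeing the data, they were -0.23 for CCNB1, -0.52 for MYBL2, -0.14 for BUB1, -0.19 for NDC80, -0.89 for ANLN and -0.29 for ECT2. The cause was not tested. The block used 6 libraries only, with terms for construct, region and replicate number. That left very little to estimate the spread between tumors from, so its counts of genes called are weak. The block changed no call of a member. By edgeR it left 0 members at an unadjusted p under 0.05 between regions, with a median of 1.05. Precision is limited by the number of tumors, 3 extra axial and 3 NLS-2SA-YAP1.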
